A study of Homo sapiens with 6 samples.

Results

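The genes FPR1, FPR2, FCGR2A and MS4A7 encode surface proteins of mature myeloid cells, and each had more mRNA after AI-10-49. They were chosen by symbol, as 4 of the 6339 rows of the deposited expression table, with their change in this same contrast already known. Their differences are therefore described here and carry no test. ME-1 is a human acute myeloid leukaemia line with inv(16), the inversion that makes the fusion protein CBFβ-SMMHC, and every library came from this single line. Cells received AI-10-49, an inhibitor that keeps CBFβ-SMMHC from binding RUNX1, at 1 µM for 6 h, or the solvent DMSO for the same time. Each group held 3 libraries from separate experiments, per the study's design text.

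Phagocytes find microbes partly by formyl peptides, short peptides that begin with formylmethionine and come from bacteria and mitochondria. FPR1 and FPR2 encode G protein-coupled receptors for such peptides. FPR1 is the classical receptor of neutrophils and monocytes, and FPR2 also takes lipid ligands and host peptides. FCGR2A encodes FcγRIIa, a receptor for IgG-coated particles that carries its activating motif (an ITAM) in its own tail. MS4A7 encodes a four-span membrane protein found on monocytes and macrophages. RUNX1 works with PU.1 and C/EBP factors at myeloid genes.

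The bases around the RefSeq transcription starts of the 4 genes are shown with short motifs marked. They are from GRCh38.p14, another build than the hg19 of the expression table. The shared direction of the genes was known when they were chosen, and joint regulation was not tested. The RefSeq table held entries for 4 of the 4 genes, in 5 windows, since FPR2 has 2 starts that lie 2209 bases apart. FPR1 and FPR2 are adjacent and point away from each other, with 9302 bases between the FPR1 start and the first FPR2 start. Each line gives 190 bases before the start and 10 after it, 5′ to 3′ in the direction of the gene. Capitals mark the PU.1 core GAGGAA or the AP-1 motif TGANTCA on either strand. The stretches are chr19:51751869-51752068 (minus strand) for FPR1, chr19:51760990-51761189 and chr19:51763199-51763398 (plus strand) for the FPR2 starts, chr1:161505267-161505466 (plus strand) for FCGR2A and chr11:60378342-60378541 (plus strand) for MS4A7.
FPR1: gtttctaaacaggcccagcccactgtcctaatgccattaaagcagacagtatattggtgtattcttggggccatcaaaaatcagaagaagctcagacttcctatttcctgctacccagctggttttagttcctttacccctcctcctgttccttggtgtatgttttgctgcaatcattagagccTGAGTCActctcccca
FPR2 start 1: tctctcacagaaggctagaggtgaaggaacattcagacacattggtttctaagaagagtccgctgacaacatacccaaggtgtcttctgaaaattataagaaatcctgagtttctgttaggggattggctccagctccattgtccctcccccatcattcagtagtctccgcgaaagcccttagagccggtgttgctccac
FPR2 start 2: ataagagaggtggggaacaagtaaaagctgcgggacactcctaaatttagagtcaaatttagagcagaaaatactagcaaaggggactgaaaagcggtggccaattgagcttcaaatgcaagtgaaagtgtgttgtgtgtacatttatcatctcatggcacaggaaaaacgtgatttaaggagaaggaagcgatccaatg
FCGR2A: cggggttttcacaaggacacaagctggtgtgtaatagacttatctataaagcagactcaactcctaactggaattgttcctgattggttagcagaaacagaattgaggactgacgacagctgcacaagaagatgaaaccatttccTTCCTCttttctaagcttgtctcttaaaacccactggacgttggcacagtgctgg
MS4A7: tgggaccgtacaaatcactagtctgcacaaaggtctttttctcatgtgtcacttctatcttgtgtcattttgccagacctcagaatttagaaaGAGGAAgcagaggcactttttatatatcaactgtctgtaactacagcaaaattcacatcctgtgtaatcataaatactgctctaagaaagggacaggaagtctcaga

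Motifs were searched on both strands of the full RefSeq windows, 250 bases before to 50 after each start, and set beside all 35116 such windows. The GAGGAA core stood once in the FCGR2A window, from -45 to -40, and once in the MS4A7 window, from -97 to -92. In all windows, 27.9% held it. The FPR1 window held 1 TGANTCA, from -6 to 1, across the start itself, and 7.71% of all windows held this motif. The RUNX motif TGTGGT was found once, in the FPR1 window from 43 to 48, beyond the bases shown, against 13.1% of all windows, and its variant TGCGGT in none of the 5 (7.29% of all windows). The C/EBP pattern TTNNGNAA stood once in each of the windows except the second FPR2 start (36.8% of all windows), and TATAAA once each in FCGR2A and MS4A7 (11.5%). The ETS core GGAA, which GAGGAA contains, occurred 4 to 6 times per window, and 95.5% of all windows had it. The 5 windows thus shared no searched motif other than this frequent one. By gene, each of the 4 had the C/EBP pattern in at least 1 window. Which FPR2 start these cells use was not tested. A match is a run of letters and was not tested as a site.

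Levels are given in FPKM, fragments per kilobase of transcript scaled to the number mapped, a per-length scale on which genes can be compared. Nearly the whole table differed between the groups. Of 6230 tested rows, 95.3% passed limma at an adjusted p under 0.05, 46.2% higher and 49.1% lower with AI-10-49, with a median log2 difference of -0.28. Summed FPKM per library ran from 178151 to 206024, apart from AI-10-49 replicate 2 at 129679, whose highest value was 159 FPKM against at least 1717 in the others. This library read 0.98 lower (median, log2) than AI-10-49 replicates 1 and 3 in rows of 100 FPKM or more and 0.29 lower from 30 to 100 FPKM. From 10 to 30 FPKM, the AI-10-49 range of FPR1 and FCGR2A, the median was 0, and from 3 to 10 FPKM, that of FPR2 and MS4A7, it was 0.12 higher. Read depth is unknown, as FPKM do not give it. In bulk RNA, fewer cells of a type and less RNA per cell cannot be told apart.

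FPR1 stood at 3.48, 2.79 and 3.10 FPKM in DMSO replicates 1, 2 and 3, and at 14.9, 12.8 and 15.7 FPKM in the AI-10-49 replicates. The groups did not overlap, and the lowest AI-10-49 library was 3.68 times the highest DMSO library. The means were 3.12 ± 0.35 and 14.5 ± 1.51 FPKM (SD, n = 3), a ratio of 4.64. On the log2(FPKM + 1) scale the difference was 1.91 ± 0.09 (SE), and 54 tested rows had a larger one.

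FPR2, its neighbour, was read at 0.834, 0.565 and 0.748 FPKM with DMSO and at 3.97, 3.90 and 3.69 FPKM with AI-10-49. DMSO replicate 2 was the lowest DMSO library for both formyl peptide receptor genes, as it was for FCGR2A. The AI-10-49 libraries of FPR2 lay close together. The mean went from 0.716 ± 0.14 to 3.85 ± 0.14 FPKM (SD, n = 3), a ratio of 5.38, with a log2 difference of 1.50 ± 0.10 (SE). FPR1 had 4.42 ± 0.45 times the FPKM of FPR2 with DMSO and 3.77 ± 0.49 times with AI-10-49 (SD over libraries, n = 3). These ratios overlapped, at 4.14 to 4.93 and 3.28 to 4.26, so a change in the proportion of the receptors to each other was not apparent at this spread.

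FCGR2A had the highest level of the 4 genes and the smallest ratio. Its DMSO libraries read 10.7, 9.06 and 10.3 FPKM and its AI-10-49 libraries 22.8, 20.5 and 26.0 FPKM. Each AI-10-49 library was above each DMSO library, by a factor of at least 1.91. The means were 10.04 ± 0.87 and 23.1 ± 2.78 FPKM (SD, n = 3), a ratio of 2.30, and the log2 difference was 1.12 ± 0.09 (SE). Part of this value may be shared with its paralogs, since 15.0% of the 90-base windows of the longest FCGR2A coding transcript (GENCODE 29) also occur in a transcript of another gene. Of 348 such windows, 243 occur in FCGR2C, 115 in AL590385.2 and 76 in FCGR2B, and some in more than 1 of them. The same share was 0% for FPR1 and FPR2 and 1.65% for MS4A7, there with MS4A14.

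MS4A7 was read at 1.02, 0.840 and 0.758 FPKM with DMSO and at 3.39, 4.71 and 4.22 FPKM with AI-10-49. Here AI-10-49 replicate 2 was the highest library, while it was the lowest AI-10-49 library for FPR1 and FCGR2A. The mean went from 0.871 ± 0.13 to 4.11 ± 0.67 FPKM (SD, n = 3), a ratio of 4.71, with a log2 difference of 1.44 ± 0.11 (SE).

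**Figure D1:**
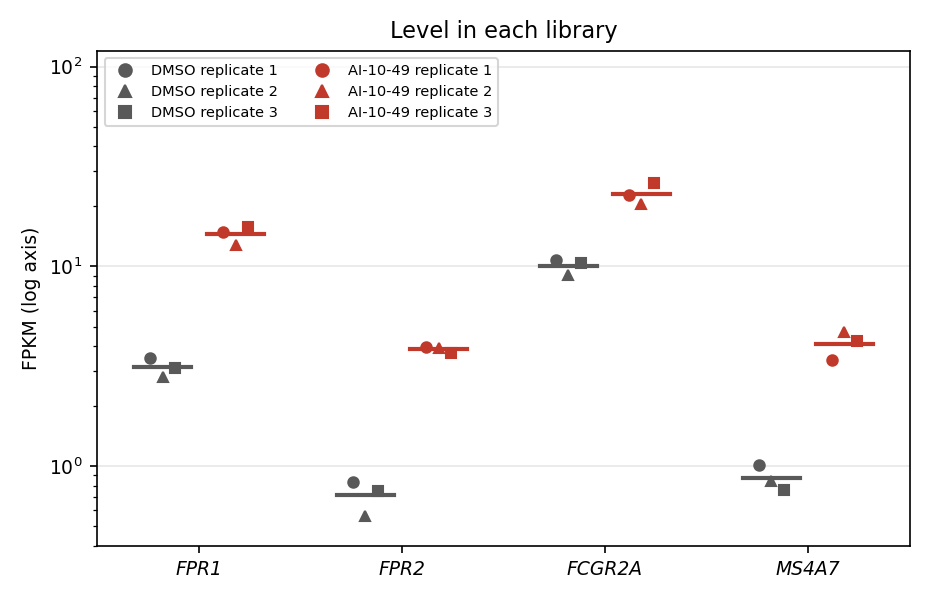
FPKM on a log axis of the 4 genes in the 6 libraries (points, grey for DMSO and red for AI-10-49, shape by replicate number), with lines at the group means. In each gene the AI-10-49 libraries lie above the DMSO libraries, from a mean of 0.716 to 3.85 FPKM for FPR2 and from 10.04 to 23.1 FPKM for FCGR2A.

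In both groups FCGR2A was highest, then FPR1, then MS4A7 and FPR2. The last 2 were not separated, since their libraries overlapped with DMSO (0.758 to 1.02 against 0.565 to 0.834 FPKM) and with AI-10-49 (3.39 to 4.71 against 3.69 to 3.97 FPKM). FPR2 and MS4A7 had DMSO means under 1 FPKM and passed the filter on low values (a mean of at least 1 FPKM in a group) only through AI-10-49, so the filter itself asked for a difference in them. With DMSO, FPR1 stood above 13.1% of tested rows and with AI-10-49 above 48.9%. For FPR2 these shares were 1.73% and 15.4%, for MS4A7 2.38% and 16.5%, and for FCGR2A 37.3% and 64.6%. The libraries of the groups did not overlap in any of the 4 genes. The table's rows appear to have been selected for a difference, and 96.2% of tested rows do not overlap either, 45.1% with the AI-10-49 libraries on top, so nothing is read from this count.

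The size of the log2 difference depended on the amount added before taking logs, most in the rows of lowest FPKM. Going from 1 to 0.1 FPKM moved FPR2 from 1.50 to 2.29 ± 0.16 (SE), MS4A7 from 1.44 to 2.11 ± 0.16 and FPR1 from 1.91 to 2.18 ± 0.10. FCGR2A moved less, from 1.12 to 1.19 ± 0.09. With the smaller amount the order of FPR1, FPR2 and MS4A7 was no longer apparent, as the plot of fold change by pseudocount shows. FCGR2A was lowest at each amount tried. Without AI-10-49 replicate 2 the log2 differences were 1.99 (FPR1), 1.50 (FPR2), 1.20 (FCGR2A) and 1.36 (MS4A7).

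**Figure D2:**
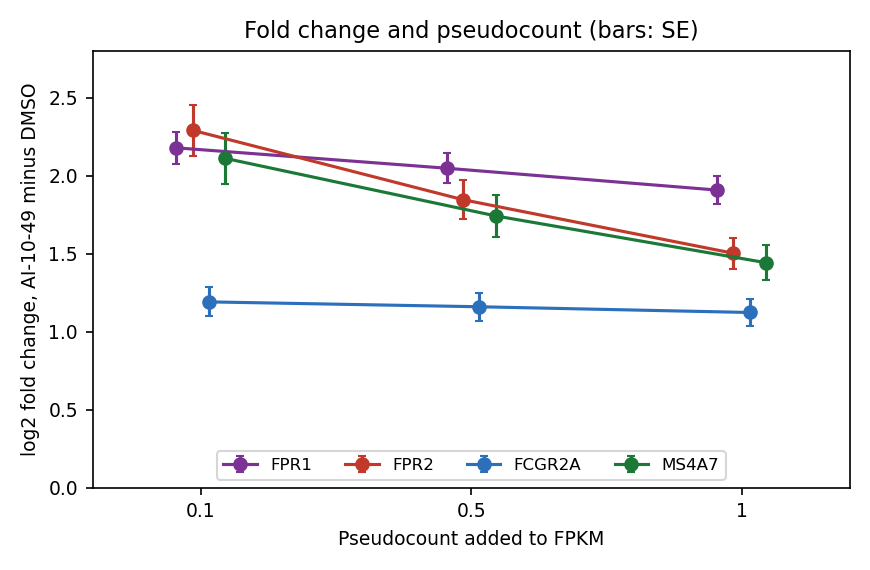
Difference of mean log2(FPKM + pseudocount), AI-10-49 minus DMSO (vertical axis, bars are the limma SE), for pseudocounts of 0.1, 0.5 and 1 FPKM. FPR2 goes from 2.29 to 1.50 and meets FPR1 and MS4A7 at 0.1, while FCGR2A stays between 1.12 and 1.19.

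Other chemoattractant receptors moved both ways. Their log2 differences were smaller than those of FPR1 and FPR2, which were chosen with their rise known. Of 18 listed besides FPR1 and FPR2, 5 were tested, and 3 rose, 1 fell and 1 did not pass. C3AR1, the receptor for complement fragment C3a, rose from 3.77 ± 0.27 to 7.08 ± 1.07 FPKM (SD, n = 3), with a log2 difference of 0.75 ± 0.10 (SE, limma adjusted p = 9.21e-06). CCRL2, a chemerin-binding receptor, rose by 0.60 (adjusted p = 7.88e-06) and CXCR4, the receptor for CXCL12, by 0.58 (adjusted p = 0.00537). CXCR4 is among the abundant rows in which AI-10-49 replicate 2 read low, and its log2 difference was 0.96 after quantile normalization, which gives the libraries 1 common distribution of values. C5AR1, the C5a receptor, fell by 0.35 (adjusted p = 0.0136), but its adjusted p was 0.0808 without DMSO replicate 3 and 0.0657 without AI-10-49 replicate 3. PTAFR, the receptor for platelet-activating factor, had a log2 difference of -0.25 and an adjusted p of 0.0634. It was tested only through its DMSO level (1.34 against 0.971 FPKM), so the filter itself asked for a lower AI-10-49 mean.

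Genes that carry or end the signal of such receptors split evenly, with 9 higher, 9 lower and 2 not past the threshold among 20 tested of 32 listed. The largest change was in RGS1, a GTPase activator that shuts off G protein signalling, from 4.15 ± 0.04 to 45.6 ± 6.58 FPKM (SD, n = 3; log2 difference 3.17, adjusted p = 2.74e-11). RGS2, of the same family, rose by 1.87 (adjusted p = 1.94e-10). GRK6, a kinase that desensitises receptors, fell by 1.13, PLCB2, the phospholipase C of myeloid cells, by 1.02, and ARRB1, a β-arrestin, by 0.89. RAC2, a GTPase of the phagocyte oxidase, fell by 1.00 ± 0.39 (SE, adjusted p = 0.0261). Its adjusted p was 0.0939 to 0.106 when any single DMSO library was left out, and its log2 difference was -0.72 without AI-10-49 replicate 2, -0.34 after quantile normalization and -0.45 with both. The oxidase subunit genes CYBA (-0.87) and NCF1 (-0.54) also fell, so each of the 3 tested oxidase genes of 6 listed was lower. Over all tested rows, 49.1% were lower. CYBA stood at -0.43 after quantile normalization and at -0.38 when AI-10-49 replicate 2 was left out as well.

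The Fc receptor genes went both ways. FCGR2B, the inhibitory IgG receptor from the same gene cluster as FCGR2A, rose from 6.03 ± 0.83 to 9.63 ± 1.40 FPKM (SD, n = 3), with a log2 difference of 0.60 ± 0.10 (SE, adjusted p = 0.000149). Of its transcript's 90-base windows, 30.01% also occur in FCGR2A (76 windows) or FCGR2C (584), so the FCGR2A and FCGR2B values are not fully separate. FCGR2A had 1.67 ± 0.11 times the FPKM of FCGR2B with DMSO and 2.44 ± 0.52 times with AI-10-49 (SD, n = 3). FCGR2A and MS4A7 were chosen with their rise known, so this ratio and the later ones with FCER1G, MS4A2 and MS4A3 are descriptions only.

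The other 5 tested Fc receptor genes, of 19 listed besides FCGR2A, fell, against 49.1% lower over all tested rows. FCER1A, the IgE-binding chain of mast cells and basophils, fell from 26.5 ± 1.77 to 9.72 ± 0.69 FPKM (SD, n = 3; log2 difference -1.36, adjusted p = 4.09e-09). MS4A2, the β chain of the same receptor and a relative of MS4A7, fell from 6.27 ± 0.44 to 1.71 ± 0.34 FPKM (-1.43, adjusted p = 5e-08). FCER1G, the signalling chain that several IgG and IgE receptors share but FcγRIIa can do without, fell by 0.56 (adjusted p = 2.94e-05). FCGRT, the neonatal Fc receptor, changed by -0.42 (adjusted p = 0.000463) and FCRLB by -0.41 (adjusted p = 0.00139). With DMSO, FCGR2A had 0.814 ± 0.10 times the FPKM of FCER1G, and with AI-10-49 it had 2.85 ± 0.10 times (SD, n = 3).

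**Figure D3:**
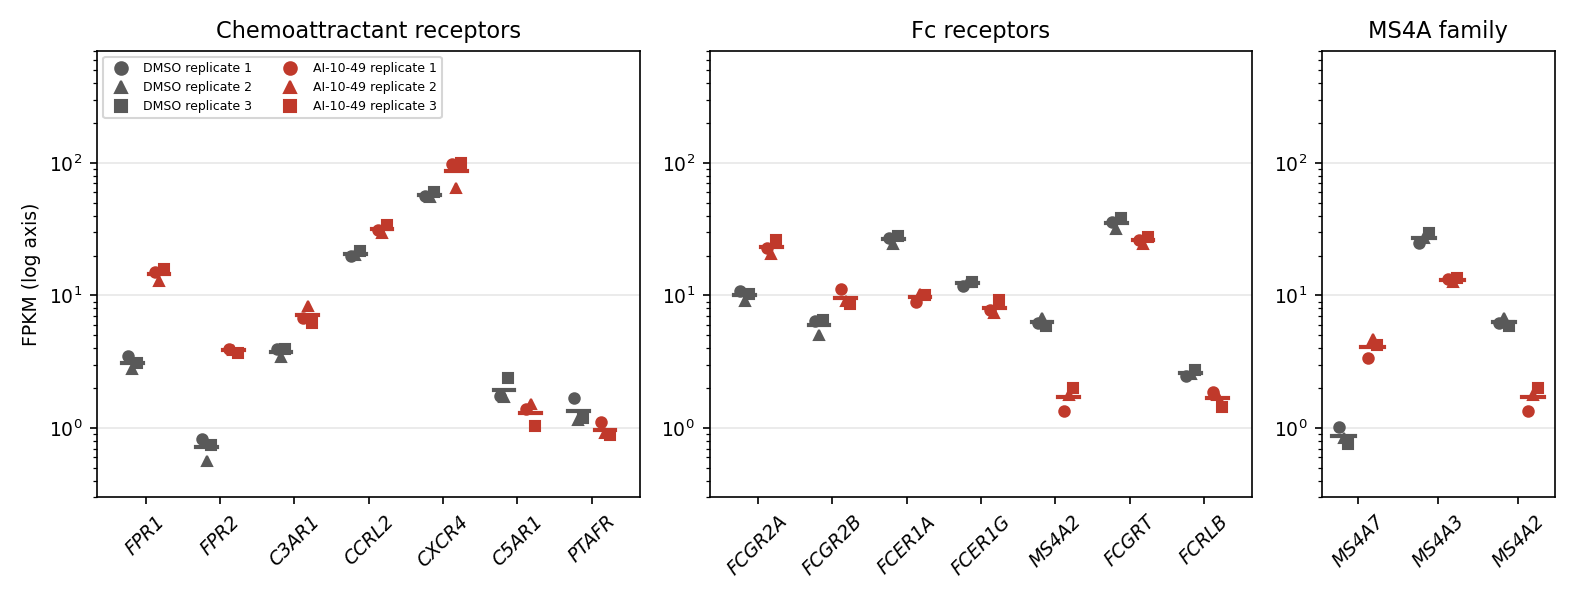
FPKM on a log axis of the tested chemoattractant receptor, Fc receptor and MS4A genes in the 6 libraries (points, grey for DMSO and red for AI-10-49, shape by replicate number), with lines at the group means. FCGR2A and FCGR2B were higher with AI-10-49 while FCER1A, FCER1G and MS4A2 were lower, and MS4A7 crossed from below MS4A2 to above it.

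In the MS4A family, 2 genes other than MS4A7 were tested of 17 listed, and both fell, against 49.1% lower over all tested rows. MS4A3, a cell-cycle regulator of myeloid progenitors, fell from 27.1 ± 2.38 to 13.2 ± 0.40 FPKM (SD, n = 3; log2 difference -0.99, adjusted p = 6.41e-08). With DMSO, MS4A2 had 7.29 ± 1.07 times the FPKM of MS4A7, and with AI-10-49 0.417 ± 0.05 times (SD, n = 3). For MS4A3 the corresponding values were 31.9 ± 7.31 and 3.27 ± 0.62.

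Genes of signalling through ITAM and ITIM motifs, by which Fc receptors activate or restrain cells, were called in 13 of 13 tested (32 listed). Of these 6 were higher and 7 lower, and 95.3% of all tested rows were called. PRKCD, a protein kinase C, fell from 38.8 ± 1.32 to 10.7 ± 0.15 FPKM (SD, n = 3; log2 difference -1.76, adjusted p = 1.11e-10). PIK3CD, the leukocyte phosphoinositide 3-kinase, fell by 0.97 and LAT2, an adaptor of myeloid and mast cells, by 0.64 (-0.39 after quantile normalization). GAB2, an adaptor that recruits this kinase, rose by 1.14 (adjusted p = 1.71e-07) and the ubiquitin ligase gene CBLB by 0.77 (adjusted p = 5.24e-07).

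Pattern recognition genes rose in 10 and fell in 9 of 19 tested (46 listed). One of the risers, TLR1, passed the filter only through its AI-10-49 level, and over the other 18 genes, 9 higher and 9 lower, the median log2 difference was 0.14. IFIH1, the RNA sensor MDA5, rose by 1.20 (adjusted p = 4.88e-09), the kinase gene IRAK2 by 1.08, the inflammasome sensor gene NLRP3 by 1.05 (adjusted p = 5.7e-08), the Toll-like receptor gene TLR6 by 1.00 and the lectin receptor gene CLEC4E by 0.85. PYCARD, the adaptor through which NLRP3 acts, fell by 1.10 (adjusted p = 9.05e-08).

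Other mature myeloid surface genes were called in 18 of 18 tested (50 listed), 9 higher and 9 lower, against 95.3% of all tested rows. The median was 0.07, between the smallest rise and the smallest fall. Without AI-10-49 replicate 2, 17 genes were tested, 8 higher and 9 lower, and the median was the smallest fall, -0.28. LILRA2, a riser, was tested only through its AI-10-49 level and CD300C, a faller, only through its DMSO level, which leaves 8 higher and 8 lower. PILRA, an inhibitory receptor of myeloid cells, rose from 1.60 ± 0.58 to 7.33 ± 0.66 FPKM (SD, n = 3; log2 difference 1.70, adjusted p = 1.34e-07), and its libraries did not overlap. CD83, a marker of activated dendritic cells, rose from 10.9 ± 0.17 to 35.1 ± 2.84 FPKM (1.60, adjusted p = 7.29e-10). Against these, SELPLG, the selectin ligand PSGL-1, fell by 1.41 (adjusted p = 7.81e-10), the inhibitory receptor gene CD300A by 1.36, CSF2RB, the β chain of the GM-CSF, IL-3 and IL-5 receptors, by 1.16 (adjusted p = 4.46e-09), and CD300C went from 2.56 to 0.599 FPKM. Scavenger and phagocytic receptors rose in 4 and fell in 5 of 9 tested (22 listed). SCARB1, a lipoprotein receptor, fell by 1.43, STAB1 by 1.03, ITGB2, the β2 integrin chain, by 0.77, CD93 by 0.44 and CD47 by 0.40, and OLR1, the receptor for oxidised lipoprotein, rose by 0.45. After quantile normalization ITGB2 stood at -0.44 and CD47 at -0.22, and CD47 at -0.27 without AI-10-49 replicate 2.

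Granule protein genes, which are made mostly at the promyelocyte and later precursor stages, had 6 tested genes of 22 listed. The 4 that passed the filter in both groups fell, namely the serine protease family genes ELANE (-0.52) and AZU1 (-0.37), the lysozyme gene LYZ (-0.44) and CST3 (-0.70), whose product cystatin C inhibits proteases. After quantile normalization CST3 stood at -0.27, and AZU1 at -0.23 when AI-10-49 replicate 2 was left out as well. PRTN3 (1.06 to 0.384 FPKM) and CEACAM6 (1.33 to 0.705 FPKM) were lower too, but they were tested only through their DMSO level, so the filter itself asked for a fall in them. Over the whole table, 49.1% of tested rows were lower. Of 16 tested myeloid transcription factor genes (30 listed), 5 rose, 10 fell and 1 did not pass. GFI1B, a repressor, fell by 1.87 (adjusted p = 1.15e-10) and CEBPA by 1.58 (adjusted p = 5.69e-07). CEBPB, which drives emergency granulopoiesis and monocyte genes, rose from 16.1 ± 2.12 to 44.5 ± 9.13 FPKM (SD, n = 3; log2 difference 1.40, adjusted p = 6.36e-07). KLF6 (1.51) and CEBPG (1.23) rose as well. KLF2, another riser, went from 0.981 to 3.87 FPKM and was tested only through its AI-10-49 level. VDR, the smallest of the 5 rises and named outside the rule of largest change, rose by 0.62 (adjusted p = 2.7e-06). NFE2 (-0.93), IRF5 (-0.82), MYB (-0.77) and GFI1 (-0.67) changed more than VDR and fell. NFE2, MYB and GFI1 are among the abundant rows in which AI-10-49 replicate 2 read low.

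**Figure D4:**
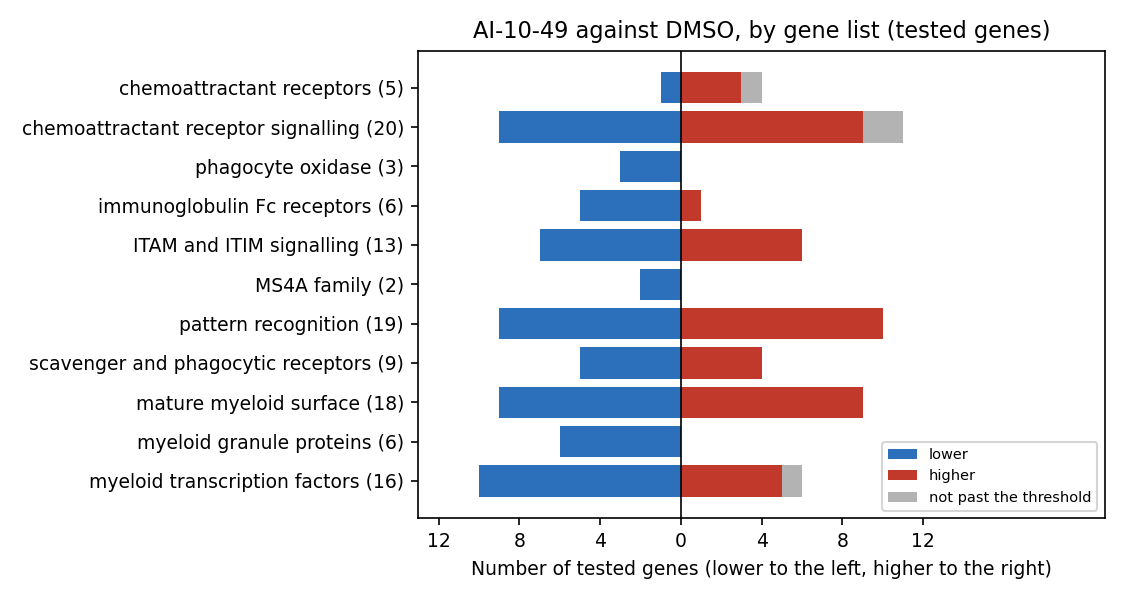
Number of tested genes per list, with those lower after AI-10-49 as blue bars left of the centre line, those higher as red bars right of it and uncalled ones in grey at the end of the red bars, the 4 chosen genes left out and the number tested in brackets. Fc receptors (5 of 6 lower) lie to the left, and so do the 6 granule protein genes, of which PRTN3 and CEACAM6 were tested only through DMSO, while pattern recognition (10 higher, 9 lower) and mature myeloid surface genes (9 and 9) go both ways.

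Over the union of these lists, 110 of 114 tested genes were called (96.5%), 47 higher (41.2%) and 63 lower (55.3%), with a median of -0.40. These shares lie near the background of the table, and 3 of the genes stand on more than 1 list. By the filter, 3 were tested only through their AI-10-49 level and 4 only through their DMSO level, and of the other 107 genes 44 rose and 60 fell. Of 16 eosinophil, basophil and mast cell markers 13 were tested and 12 fell, against 49.1% lower over all tested rows. Their summed FPKM was 1144 to 1254 with DMSO and 560, 304.2 and 542 in AI-10-49 replicates 1, 2 and 3. TPSB2, an abundant one of these markers, stood at 39.6 FPKM in AI-10-49 replicate 2, which read low in abundant rows. In AI-10-49 replicates 1 and 3 it stood at 219 and 207 FPKM. These markers also include MS4A2 and FCER1A, and their part in the results for the IgE receptor genes was not tested. Of 15 monocyte and macrophage markers, LYZ alone had a row, at 15.1 to 16.0 FPKM with DMSO and 11.1 to 11.5 with AI-10-49, and of 12 neutrophil markers 3 had one, ELANE, AZU1 and PRTN3. Tested markers of B cells (3 of 10), T and NK cells (2 of 11), erythroid cells (2 of 11), megakaryocytes (3 of 10) and endothelium or fibroblasts (3 of 11) were lower, and none was listed at 0 in a library. The background was 49.1% lower. Of these markers, CD79A and VPREB1 of the B cell list and CD3E of the T and NK list passed the filter only through DMSO, where they were high. The other markers were not analysed here.

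Rows whose 6-library profile was most like each gene were found by the Euclidean distance of log2(FPKM + 1), each row set to 0 at its DMSO mean, among 5989 other tested rows with a symbol of their own. The nearest to FPR1 were TARP, TREML2 and PDE4B, at distances of 0.16, 0.25 and 0.28. TREML2, a receptor of the TREM family, went from 4.19 to 19.9 FPKM, and PDE4B, a phosphodiesterase that breaks down cyclic AMP, from 7.52 to 30.5 FPKM. Nearest to FPR2 were GKAP1, ING3 and DUSP16 (0.15, 0.16 and 0.17), to FCGR2A STK38L, GGPS1 and LYPLAL1 (0.13, 0.14 and 0.16) and to MS4A7 VAMP4, FOS and C17orf48 (0.18, 0.19 and 0.22). Among the 4 genes themselves the closest pair was FPR2 and MS4A7, at 0.36, and the farthest FPR1 and FCGR2A, at 1.36. On this scale each of the 4 had other rows nearer to it than any of the other 3. With 5989 rows searched against 3, nearer rows were likely to be found, so nothing is read from this. The 1 FPKM added before taking logs shrinks differences most in rows of low FPKM, such as FPR2 and MS4A7. With 0.1 FPKM added, the log2 differences of FPR1, FPR2 and MS4A7 were 2.18, 2.29 and 2.11. Distances with this smaller amount were not computed.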

How the data were processed

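RNA of 6 ME-1 libraries was made into TruSeq libraries and sequenced as 90-base paired reads, per the labels. The authors' deposited table holds FPKM for 6339 rows, made on hg19 with Bowtie2 2.1.0, Cufflinks 2.2.0 and a Cuffdiff of unstated version, per the submitters' processing notes. The sources used here do not give the rule by which rows were selected, and 198 rows name several genes. FPKM are not counts, so log2(FPKM + 1) was fitted with limma 3.58.1 in R 4.3.3 (two-sided, with a mean-variance trend) to give AI-10-49 minus DMSO. The filter kept rows whose mean reached 1 FPKM in a group (6230, with 109 left out), and p-values were adjusted by Benjamini-Hochberg over these rows with a threshold of 0.05. P-values measure the spread between the deposited libraries, on rows that appear selected on the same libraries. The limma fit was tested on simulated data in which far fewer rows changed than in this table. Members, gene lists and tests were chosen with earlier results of these data known. Named genes were the 4 chosen genes, the 6 of largest change per list (or as many as were tested) and the 3 nearest profiles per chosen gene. In the transcription factor list VDR, NFE2, IRF5, MYB and GFI1 were named outside this rule. The motifs, the chromosome neighbours and the ratios were chosen after values or windows had been seen. Python 3.11.15, NumPy 2.4.6, pandas 2.3.3 and Matplotlib 3.10.9 were used.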

Additional observations from a re-analysis of the deposited data

How the results depend on the processing

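Adding 0.1 or 0.5 in place of 1 FPKM gave log2 differences of 2.18 and 2.05 for FPR1, 2.29 and 1.85 for FPR2 and 2.11 and 1.74 for MS4A7. These are 6 of 48 values of the 4 genes that moved by more than the spread between replicates, and none changed sign. Leaving out single libraries gave 1.85 to 1.99 for FPR1, 1.44 to 1.55 for FPR2, 1.04 to 1.20 for FCGR2A and 1.36 to 1.55 for MS4A7. Without single libraries, 5730 to 6067 rows and 105 to 111 list genes were called. Under the other settings these numbers were 5018 and 89 (a 5 FPKM filter, which tests fewer rows) to 6037 and 113 (no filter). With the replicate block 6015 rows and 110 list genes were called. Same-numbered libraries correlated in their deviations at -0.15, 0.147 and 0.247, so the numbers were not treated as pairs. Quantile normalization moved the median of all rows from -0.28 to -0.06, with FPR1 at 1.87, FPR2 at 1.45, FCGR2A at 1.11 and MS4A7 at 1.37. Of 992 values of 67 other named genes 5 lost the call, in C5AR1 and RAC2, 4 gained it, in PTAFR, and none reversed. With 0.1 in place of 1 FPKM, genes of low FPKM had larger differences, -1.95 for CD300C, -1.29 for PRTN3, -0.83 for CEACAM6, -0.81 for ELANE, -0.54 for C5AR1 and -0.42 for PTAFR, and PTAFR stood at -0.14 without DMSO replicate 1. Depth is unknown, so the precision of values under 1 FPKM rests on the libraries' spread alone.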

Other observations

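The 4 genes stand in 3 chromosome neighbourhoods, where the 5 protein-coding RefSeq genes on each side were looked up by their order along GRCh38.p14. Of 30 such neighbours, 9 were tested, and 6 rose and 3 fell, on a background of 46.2% higher and 49.1% lower. HAS1, a hyaluronan synthase gene next to FPR1, rose from 7.82 to 16.3 FPKM (log2 difference 0.99, limma adjusted p = 1.71e-06). HSPA6, an inducible heat shock gene next to FCGR2A, rose from 1.36 to 8.93 FPKM (2.09, adjusted p = 1.24e-08), although 30.6% of its 90-base windows also occur in HSPA7. Beyond FPR2 the zinc finger genes ZNF613 (0.45) and ZNF350 (0.78) rose, and on the other side of FPR1 a row named LINC00085, which RefSeq lists under SPACA6, rose by 0.68 and ZNF175 fell by 0.38. SDHC, near FCGR2A, fell by 0.39. Within 5 places of MS4A7 MS4A2 was the only tested gene, and it fell. Neighbours without a row were not analysed here.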
